A study of Mus musculus with 4 samples.

Results

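Hypoxia and glycolysis genes were followed through the cells of mouse skin tumours. The set holds 34 genes, chosen by symbol from the 31054 rows of the count tables, and every member was found in all 4 libraries. Cells cut glucose to pyruvate through the glycolytic enzymes, and lactate dehydrogenase turns pyruvate into lactate where oxygen is short. When oxygen falls, the oxygen sensors of the Egln family stop marking hypoxia-inducible factor (HIF) for destruction. HIF then binds a short core sequence beside its targets, which include most genes of glycolysis, the glucose carrier Slc2a1 and the lactate carrier Slc16a3. Many tumours, and neutrophils, which live largely on glycolysis, keep these genes high.

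The tumours came from LKPR mice, in which Lgr5CreER, active in cells that express Lgr5 such as hair follicle stem cells, deletes both p53fl/fl alleles after tamoxifen and turns on YFP from Rosa26. All mice carried these alleles and received tamoxifen, as 4 daily injections of 2.5 mg from postnatal day 28. NP137, an antibody against netrin-1, began 4 weeks after tamoxifen and went on until death, with a dose of 10 mg/kg once in 2 days. Tumours were seen 7 to 9 weeks after tamoxifen, and the labels name no vehicle for the control mice. There were 2 NP137 and 2 control libraries of sorted live cells on the 10x 3′ platform. Nothing in the labels states whether each library is a different animal, and a p-value here measures only the spread between these samples.

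After filtering, NP137 1, NP137 2, control 1 and control 2 held 14205, 14513, 10482 and 5301 cells, with medians of 2352, 5196, 4566.5 and 6044 UMIs. Between 24 and 86 cell barcodes were shared by any pair of libraries, at most 0.578% of a library. NP137 1 stood apart in that 27.7% of its cells had Xist reads without Y-linked reads and 16.7% had the reverse, while NP137 2 and control 1 showed almost only the first pattern and control 2 almost only the second. Tumour cells were taken as the clusters in which at least 50% of cells had a YFP UMI, and they numbered 3205 and 955 in the NP137 libraries, against 4616 and 1328 in the control libraries. Clusters were formed without the 34 members. Levels below are relative to all UMIs of the class in that library, so they say nothing of the RNA per cell.

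The YFP-positive cells fell into an epithelial-like state and the remaining YFP-positive cells, called the other state below, and the groups differed in their mix. Epithelial-like cells numbered 3073 and 945 in NP137, against 389 and 23 in control, and the other state 132 and 10 in NP137, against 4227 and 1305 in control. Krt14, a basal keratin, stood at 11073 and 12963 CPM (UMIs of a class sum scaled to a common total) in epithelial-like cells of NP137 and 10144 and 10902 CPM in those of control. In the other state it stood at 1341 and 312 CPM in NP137 and 177 and 143 CPM in control. The other state pooled 2 clusters that the control libraries filled differently. A cluster led by Mme and H19 held 4213 cells of control 1 and 48 of control 2. One led by Mgp and Crisp1 held 14 of control 1 and 1257 of control 2. By its markers the first was fibroblast-like, with a score of 0.63, and the second, with 0.38, reached no name. The epithelial-like state also pooled 2 clusters, and 1 of them held 2720 cells of NP137 1 and 29 of NP137 2, the other 353 and 916. This mix moves with every comparison of all YFP-positive cells.

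Promoters of 5 members are shown because these genes carry the contrasts that follow: Ldha, Slc2a1, Bnip3 and Ankrd37 were higher in the epithelial-like state, and Hk2 was lower there. The windows run from 250 bases before to 50 bases after the start, from RefSeq on GRCm38.p6, and are written 5′ to 3′ along the gene. Capitals mark the HIF core, ACGTG or GCGTG, or its reverse complement, CACGT or CACGC, and overlapping matches run together.
Ldha (chr7:46845554-46845853, + strand): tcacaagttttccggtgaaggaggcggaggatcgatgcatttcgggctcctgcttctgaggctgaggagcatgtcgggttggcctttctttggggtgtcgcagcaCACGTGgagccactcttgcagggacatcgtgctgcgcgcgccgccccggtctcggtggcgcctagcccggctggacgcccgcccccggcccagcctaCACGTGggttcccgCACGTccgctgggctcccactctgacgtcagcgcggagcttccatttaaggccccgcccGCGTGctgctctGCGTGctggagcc
Slc2a1 (chr4:119108495-119108794, + strand): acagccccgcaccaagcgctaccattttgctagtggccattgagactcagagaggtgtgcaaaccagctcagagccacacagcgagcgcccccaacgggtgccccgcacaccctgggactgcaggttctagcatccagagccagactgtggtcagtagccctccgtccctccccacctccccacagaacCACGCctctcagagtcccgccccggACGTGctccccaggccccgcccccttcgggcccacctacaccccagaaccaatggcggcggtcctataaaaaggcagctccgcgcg
Bnip3 (chr7:138909457-138909756, - strand): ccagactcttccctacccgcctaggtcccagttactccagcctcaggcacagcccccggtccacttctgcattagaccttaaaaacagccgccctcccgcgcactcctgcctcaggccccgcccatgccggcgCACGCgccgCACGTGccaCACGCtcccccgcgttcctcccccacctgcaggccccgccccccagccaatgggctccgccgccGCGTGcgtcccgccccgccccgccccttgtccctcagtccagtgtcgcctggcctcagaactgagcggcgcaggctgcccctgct
Ankrd37 (chr8:45999801-46000100, - strand): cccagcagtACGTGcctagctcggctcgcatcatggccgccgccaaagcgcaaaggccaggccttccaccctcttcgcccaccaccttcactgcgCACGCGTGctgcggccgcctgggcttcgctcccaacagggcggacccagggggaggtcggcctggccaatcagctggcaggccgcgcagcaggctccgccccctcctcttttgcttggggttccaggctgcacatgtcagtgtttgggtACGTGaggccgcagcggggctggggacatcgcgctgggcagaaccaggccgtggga
Hk2 (chr6:82774405-82774704, - strand): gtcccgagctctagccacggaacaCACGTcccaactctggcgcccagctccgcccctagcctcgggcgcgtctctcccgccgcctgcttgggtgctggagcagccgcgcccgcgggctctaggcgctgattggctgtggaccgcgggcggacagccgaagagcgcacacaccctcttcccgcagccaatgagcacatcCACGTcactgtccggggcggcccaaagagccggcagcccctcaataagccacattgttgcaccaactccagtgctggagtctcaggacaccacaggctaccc
The core stood in a window of 28 of the 30 members with a promoter entry, or 93.3%. It stood in a window of 46.7% of the 27025 genes in the table. Among the 5687 genes with a mean of at least 10 CPM over the 2 states of YFP-positive cells, 72.2% had one. A gene can have more than 1 window. Counted by window, the core stood in 83.3% of the members' 42 windows. It stood in 43.8% of the 32851 windows of all genes and in 65.6% of the 7297 windows of the genes at that level. Ldha also had a window with 2 matches that is not shown. A match is a string of letters, not a bound site. Bnip3l, Ero1l, Ndrg1 and Plod2 had no entry.

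The first comparison asked how the members stood in YFP-positive cells of NP137 tumours relative to control. Most stood higher in both NP137 libraries, with a median log2 fold change of 2.43 for the 2 carriers and 1.32 for the 13 glycolytic enzymes, but none passed the test over all genes. Of the 34 members, all of them tested, 25 were higher and 2 lower in both NP137 libraries, where 27.8% and 30.1% of the 14162 genes tested were. At an adjusted p under 0.05 (edgeR's quasi-likelihood test, Benjamini-Hochberg), 0 members were called, where 0% of all genes were higher and 0.00706% lower. In simulated counts this test recovered 0% of genes changed by a log2 of 1 in YFP-positive cells. It recovered 10.9% of those changed by 2 and 66.7% of those changed by 4. In the other classes it recovered at most 9.38% at a log2 of 1. The absence of calls therefore does not show that members were unchanged. At an unadjusted p under 0.05, 18 members were higher and 0 lower, against a background of 10.8% higher and 12.7% lower. The log2 fold change was above 0 for 30 members and 48.3% of genes. The median log2 fold change of the members was 1.42, and that of all genes -0.04.

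DESeq2 on the same sums called 18 members higher and 0 lower, where it called 6.90% of genes higher and 9.11% lower, and edgeR without the filter on low counts called 11 members, where it called 5.82% of 21865 genes. In simulated counts with a spread set gene by gene, both of these settings called far more unchanged genes than the threshold allows, and filtered edgeR did so much less. Their counts are therefore given as values and not as calls. Leaving out control 1 gave 4 members at an adjusted p under 0.05 in edgeR, where 3.08% of genes were called, and leaving out NP137 1 gave 1, where 0.72% were. In these fits 1 group holds a single library, which is assumed to vary like the other group. Without NP137 1, the library of mixed sex-linked reads, the members' median was 1.78 and 30 were higher in NP137 2 than in both control libraries, as were 34.7% of genes.

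Among the 13 glycolytic enzymes, 11 were higher and 0 lower in both NP137 libraries. Ldha, which makes lactate from pyruvate, stood at 2030 and 2541 CPM (here scaled by TMM) in NP137, against 627 and 611 CPM in control. Its log2 fold change was 1.88 ± 0.25 (SE, 2 against 2 libraries; edgeR adjusted p = 0.065), the smallest p of any member. Both NP137 libraries lay well above both control libraries. Pfkp, a phosphofructokinase that sets the pace of the pathway, stood at 107 and 145 CPM in NP137, against 35.7 and 35.5 CPM in control, a log2 fold change of 1.82 ± 0.27 (SE; edgeR adjusted p = 0.070). Pgk1, the first enzyme of the pathway to return ATP, stood at 941 and 1307 CPM in NP137, against 432 and 318 CPM in control. Pgam1, a mutase, stood at 1346 and 1426 CPM in NP137, against 570 and 383 CPM in control. Pkm stood at 2039 and 2651 CPM in NP137, against 1130 and 645 CPM in control, and Pfkl, Gpi1, Aldoa, Tpi1 and Eno1 were likewise separated, with log2 fold changes between 1.05 and 1.74. Gapdh reached 6165 CPM in NP137 2 and 2203 CPM in NP137 1, against 1513 and 1835 CPM in control, so 1 library set most of its fold change.

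Hk1 and Hk2, the hexokinases that trap glucose in the cell, did not follow the other enzymes. Hk2 stood at 38.1 and 108 CPM in NP137, against 159 and 57.5 CPM in control, and the groups overlapped. Hk1 stood at 38.8 and 55.0 CPM in NP137, against 41.9 and 39.6 CPM in control, again with overlap. Processed copies of Gapdh, Pgk1, Aldoa, Eno1, Ldha and Pkm lie elsewhere in the genome, so reads of these genes may be split or lost, and 3′ counts do not separate the isoforms of Pkm.

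Both carriers were higher in NP137. Slc2a1 stood at 236 and 453 CPM in NP137, against 97.4 and 48.3 CPM in control, a log2 fold change of 2.24 ± 0.51 (SE; edgeR adjusted p = 0.100). Slc16a3 stood at 180 and 162 CPM in NP137, against 42.3 and 13.5 CPM in control. After thinning each cell to 2000 UMIs, 32.1% and 43.9% of NP137 cells had a Slc2a1 UMI, against 16.3% and 10.9% of control cells. Without thinning these shares were 64.5% and 82.8% in NP137, against 46.3% and 58.1% in control. Among T or NK-like cells at the same thinned depth, 4.69% had a Slc2a1 UMI in NP137 2, against 5.80% and 6.25% in control, with too few cells in NP137 1.

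**Figure D1:**
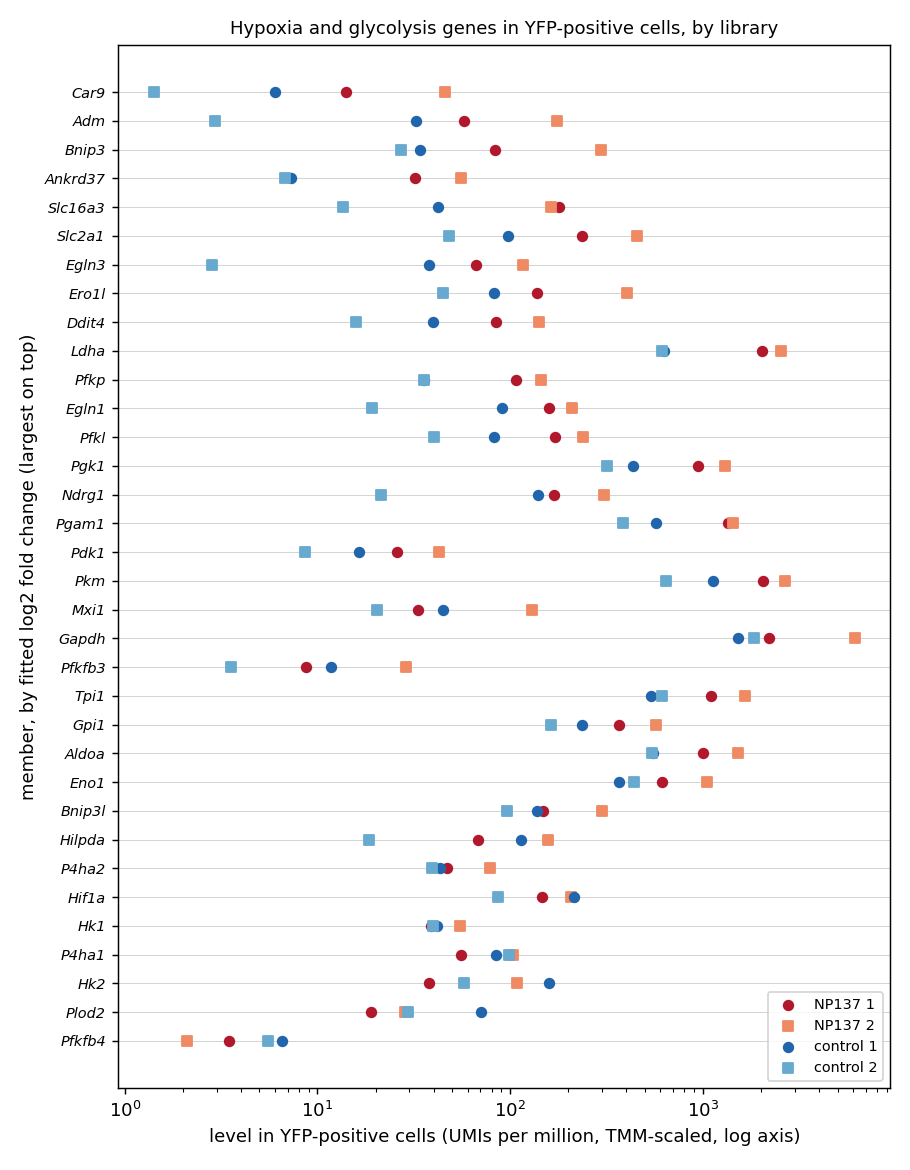
Level of each member in YFP-positive cells (log axis, CPM scaled by TMM), 1 point per library, NP137 in red and orange and control in dark and light blue, ordered by log2 fold change. Both NP137 points lie right of both control points for 25 of the 34 members, and Plod2 and Pfkfb4 show the reverse.

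The oxygen-sensing genes split. Egln3 and Egln1, the sensors, were higher in both NP137 libraries, Egln3 at 66.7 and 116 CPM in NP137, against 37.7 and 2.85 CPM in control. Hif1a, which encodes the factor itself and is mostly governed at the protein level, stood at 146 and 206 CPM in NP137, against 213 and 86.1 CPM in control. Its groups overlapped, and its direction turned when NP137 2 or control 2 was left out. Egln1 stood at 158 and 208 CPM in NP137, against 90.1 and 19.1 CPM in control. Pdk1, which keeps pyruvate out of mitochondria, stood at 25.7 and 42.6 CPM in NP137, against 16.5 and 8.61 CPM in control.

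Among the remaining targets, Bnip3, a receptor for the removal of mitochondria, stood at 83.7 and 297 CPM in NP137, against 33.8 and 27.3 CPM in control. Ankrd37, a small ankyrin-repeat protein, stood at 32.2 and 55.2 CPM in NP137, against 7.31 and 6.82 CPM in control, a log2 fold change of 2.63 ± 0.38 (SE; edgeR adjusted p = 0.068). Car9, a carbonic anhydrase of the cell surface, stood at 14.1 and 45.7 CPM in NP137, against 6.02 and 1.41 CPM in control. Adm stood at 57.4 and 174 CPM in NP137, against 32.6 and 2.96 CPM in control. Ddit4, a brake on growth signalling, stood at 84.2 and 142 CPM in NP137, against 39.6 and 15.8 CPM in control. Ndrg1, Bnip3l, Ero1l and P4ha2 were also separated, with log2 fold changes of 1.57, 0.94, 2.09 and 0.61, whereas Hilpda, Mxi1 and Pfkfb3 overlapped, with 0.77, 1.32 and 1.28. The collagen hydroxylases were uneven: beside P4ha2, higher in both NP137 libraries, Plod2, a lysyl hydroxylase, stood at 18.9 and 28.4 CPM in NP137, against 70.3 and 29.4 CPM in control, and P4ha1, a prolyl hydroxylase like P4ha2, overlapped between the groups. Pfkfb4 was the other member lower in both NP137 libraries, at 3.49 and 2.11 CPM in NP137, against 6.52 and 5.54 CPM in control.

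Genes of the same pathways outside the set were less even. Of 21 further hypoxia targets tested, 8 were higher and 5 lower in both NP137 libraries, where 27.8% and 30.1% of all genes were. Their median log2 fold change was 0.90, and at an unadjusted p under 0.05 (edgeR) 5 were higher and 4 lower. Higd1a, a mitochondrial protein, stood at 348 and 616 CPM in NP137, against 150 and 125 CPM in control. Car12, a carbonic anhydrase, stood at 40.5 and 91.6 CPM in NP137, against 14.3 and 8.61 CPM in control. Of 16 other glycolysis genes tested, 6 were higher and 6 lower, with a median of -0.05. At an unadjusted p under 0.05 (edgeR) 2 of these were higher and 5 lower. Pgm2, the gene of smallest p among them, feeds sugar phosphates into the pathway. It stood at 49.0 and 78.4 CPM in NP137, against 22.2 and 18.7 CPM in control. Of 18 nuclear genes of the citric acid cycle and respiratory chain, 12 were higher and 0 lower, with a median of 0.33. Idh3a, of the citric acid cycle, stood at 113 and 117 CPM in NP137, against 55.7 and 39.7 CPM in control. The 12 tested genes of the HIF machinery held 4 higher and 3 lower, with a median of 0.12. No gene of these lists passed an adjusted p of 0.05. Keratinocyte genes moved with the members: 6 of 8 were higher and 0 lower in both NP137 libraries, with a median of 3.36. The summed CPM of 10 genes that respond to tissue handling was 4498 and 3935 in NP137, against 8454 and 5842 in control. The part of either list in the result was not tested.

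Within a library, the members followed the state of the tumour cell. The summed CPM of the 13 glycolytic enzymes in epithelial-like YFP-positive cells was 11583 and 17094 in NP137, against 11031 and 9985 in control. In the other state it was 6671 and 4159 in NP137, the second from 10 cells, against 6099 and 6345 in control. The epithelial-like sum was thus higher than the other in each library, control libraries included. These are values of clusters and carry no test.

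Members and genes were counted here if the mean CPM of the 2 states was at least 10 in each of NP137 1, control 1 and control 2. A gene could thus pass through 1 state alone. In control 2, Egln3 and Adm passed through the epithelial-like state, with log2 ratios of 4.53 and 4.74. Of 31 members at that level, 22 were higher in the epithelial-like state in all 3 libraries, and 2 were lower in all 3. Of the 7174 genes at that level, 24.6% were higher and 28.7% lower in all 3. The median log2 ratio of the members was 0.68 in NP137 1, 0.89 in control 1 and 0.96 in control 2, and that of all genes was -0.04, 0.05 and -0.12. Slc16a3 had log2 ratios of 2.90, 2.00 and 2.63 in NP137 1, control 1 and control 2, and Ankrd37 of 2.56, 1.81 and 2.19. Ldha had 1.23, 1.64 and 1.55. The 2 members lower in all 3 were Hk2, with -1.41, -0.86 and -0.15, and Plod2, with -1.47, -1.58 and -0.03. The epithelial-like cells of control 2 numbered 23, and the other state of NP137 2 was left out for its 10 cells.

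**Figure D2:**
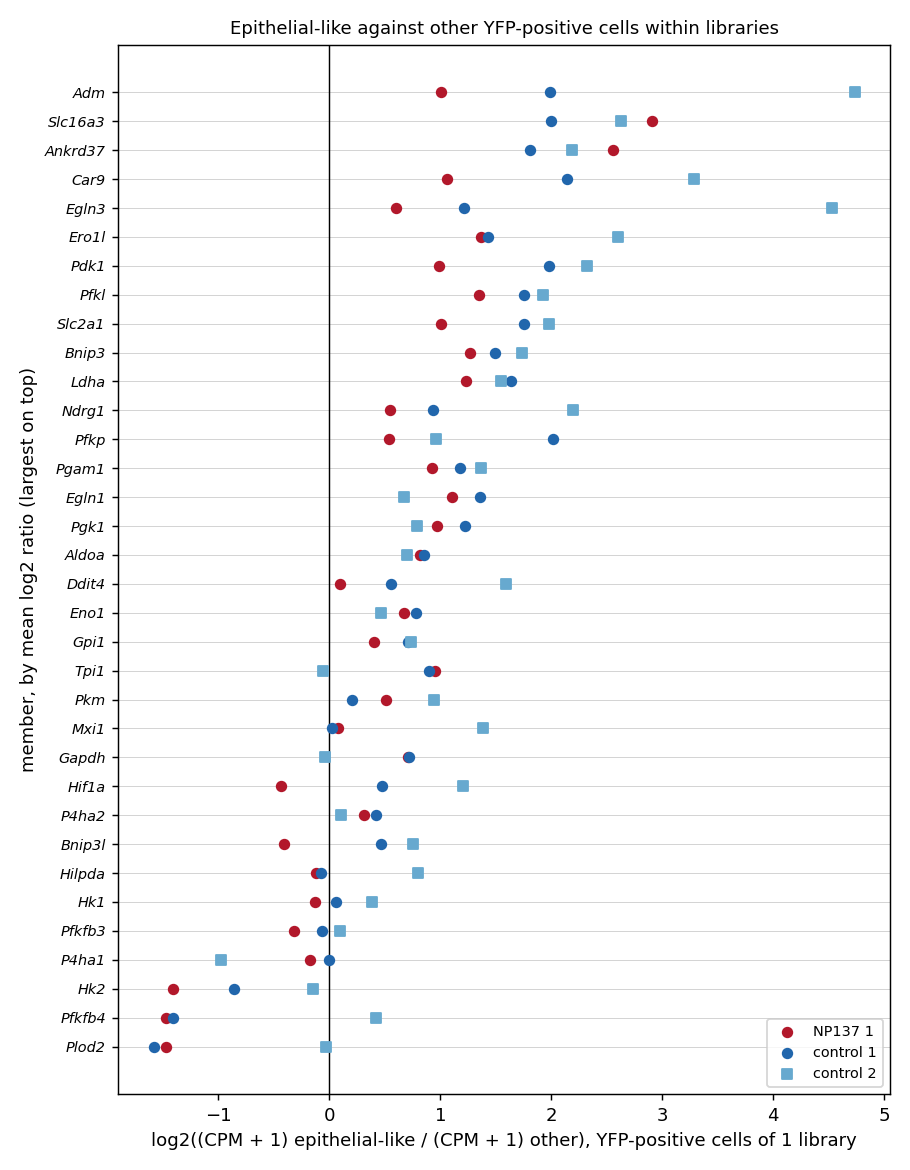
Log2 ratio of each member between epithelial-like and other YFP-positive cells of the same library, 1 point per library. Most points lie right of 0 in NP137 1 as in both control libraries, and Hk2 and Plod2 lie left of it.

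The comparison was then repeated in epithelial-like YFP-positive cells alone, a choice made after the state difference had been seen. The members' median log2 fold change was 0.44, against 1.42 over all YFP-positive cells, and that of all genes was 0.00. In this state 10 members were higher and 2 lower in both NP137 libraries, where 17.0% of genes were higher and 15.7% lower. At an adjusted p under 0.05 edgeR called 0 members, and at an unadjusted p under 0.05 it had 3 higher, Ddit4, Pkm and Tpi1, where 1.51% of genes were higher, and 0 lower, where 1.65% were. DESeq2 was not run on this state.

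Ldha stood at 2027 and 2476 CPM in epithelial-like cells of NP137, against 1524 and 1871 CPM in those of control, a log2 fold change of 0.41 ± 0.31 (SE; edgeR adjusted p = 1.00). Slc2a1 stood at 235 and 441 CPM in NP137, against 252 and 200 CPM in control, so its groups overlapped here. Pdk1 was at 25.6 and 41.5 CPM in NP137, against 48.9 and 47.5 CPM in control, the reverse of its order over all YFP-positive cells. Hif1a was also lower in both NP137 libraries, at 143 and 200 CPM, against 276 and 210 CPM in control. Pkm, the last enzyme before pyruvate, kept a gap, with 2023 and 2582 CPM in NP137, against 1243 and 1318 CPM in control.

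**Figure D3:**
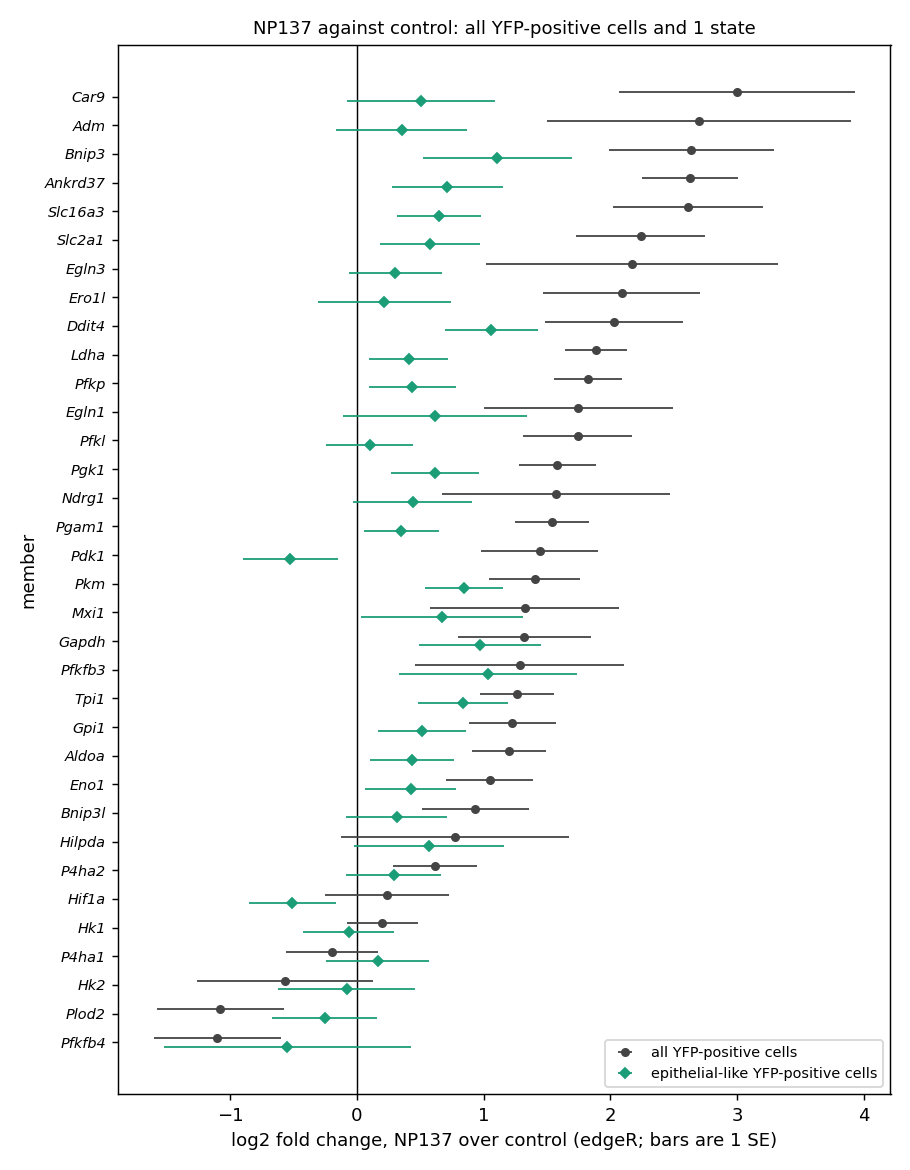
Log2 fold change of NP137 over control for each member with 1 SE, in all YFP-positive cells (grey) and in epithelial-like YFP-positive cells (green). The median is 1.42 for the grey points and 0.44 for the green ones.

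The file names give NP137 1 and control 1 the same date, and the other libraries dates of their own. Between those 2 libraries, 22 of 32 members with a mean of at least 10 CPM were higher in NP137 1 over all YFP-positive cells. Their median log2 ratio was 0.62, where 45.9% of genes were higher and their median was -0.07. In the epithelial-like state 7 of 33 were higher in NP137 1, with a median of -0.34, where 41.0% of genes were higher and their median was -0.13. The members therefore leaned to opposite sides in the pooled cells and in the state alone. Gapdh in this state stood at 2190 and 6006 CPM in NP137, against 2249 and 1929 CPM in control, so NP137 2 alone was high.

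Neutrophils were the other site of high levels. Of the 8 classes with at least 50 cells in every library, neutrophil-like cells had the highest CPM in all 4 libraries for 11 members, fibroblast-like cells for 3 and endothelial-like cells for 1. For 9 of those 11 the lowest neutrophil library lay above the highest library of the class next in order. Hilpda, which coats lipid droplets and blocks their breakdown, stood at 1568 and 2583 CPM in neutrophils of NP137, against 1641 and 1889 CPM in control. Hilpda in macrophage or monocyte-like cells stood at 646 and 310 CPM in NP137, against 338 and 225 CPM in control. Free RNA shared in the ratio of Krt14 would give neutrophils at most 60.2 and 65.1 CPM of Hilpda in NP137, against 116 and 27.9 CPM in control.

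Pfkfb3, which makes the activator of phosphofructokinase, stood at 89.1 and 284 CPM in neutrophils of NP137, against 110 and 152 CPM in control. Ero1l, an oxidase of the secretory pathway, stood at 381 and 689 CPM in NP137, against 525 and 438 CPM in control. In neutrophils 13 of 33 members were higher and 0 lower in both NP137 libraries, where 14.1% of genes were higher and 16.4% lower. Positive log2 fold changes were found for 32 members and 51.5% of genes, with a median of 0.68 for the members and 0.02 for all genes. EdgeR called 0 higher and 0 lower at an adjusted p under 0.05 (0% and 0% of genes), with 2 and 0 at an unadjusted p under 0.05 (0.637% and 3.3%), and DESeq2 called 0 and 0 (0.022% and 0.0988%). The 2 with an unadjusted p under 0.05 in edgeR were Ddit4 and Ankrd37. Ddit4 stood at 81.1 and 120 CPM (scaled by TMM) in NP137, against 43.3 and 50.7 CPM in control. Ankrd37 stood at 100 and 169 CPM in NP137, against 57.7 and 76.0 CPM in control. Between NP137 1 and control 1, of the same date, 17 of 31 members with a mean of at least 10 CPM were higher in NP137 1. Their median log2 ratio was 0.02, where 45.7% of genes were higher and their median was -0.05.

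The libraries filled different neutrophil clusters. NP137 2 placed 4277 of its 4422 neutrophils in a cluster led by Ccl3, while NP137 1 placed 2395 of 2402 in a cluster led by Retnlg, as did control 1 with 989 of 1080 and control 2 with 201 of 218. In the Retnlg cluster alone the members' median was 0.29, with 12 higher and 3 lower in both NP137 libraries, where 16.9% of genes were higher and 19.3% lower. EdgeR called 0 of them at an adjusted p under 0.05, and at an unadjusted p under 0.05 it had 0 higher and 1 lower, where 1.32% and 3.51% of genes were. Hilpda in that cluster stood at 1549 and 1189 CPM (scaled by TMM) in NP137, against 1532 and 1760 CPM in control, so NP137 2 was the lowest of the 4 there, although over all neutrophils it was the highest. The part of the cluster mix in the neutrophil values was not tested.

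**Figure D4:**
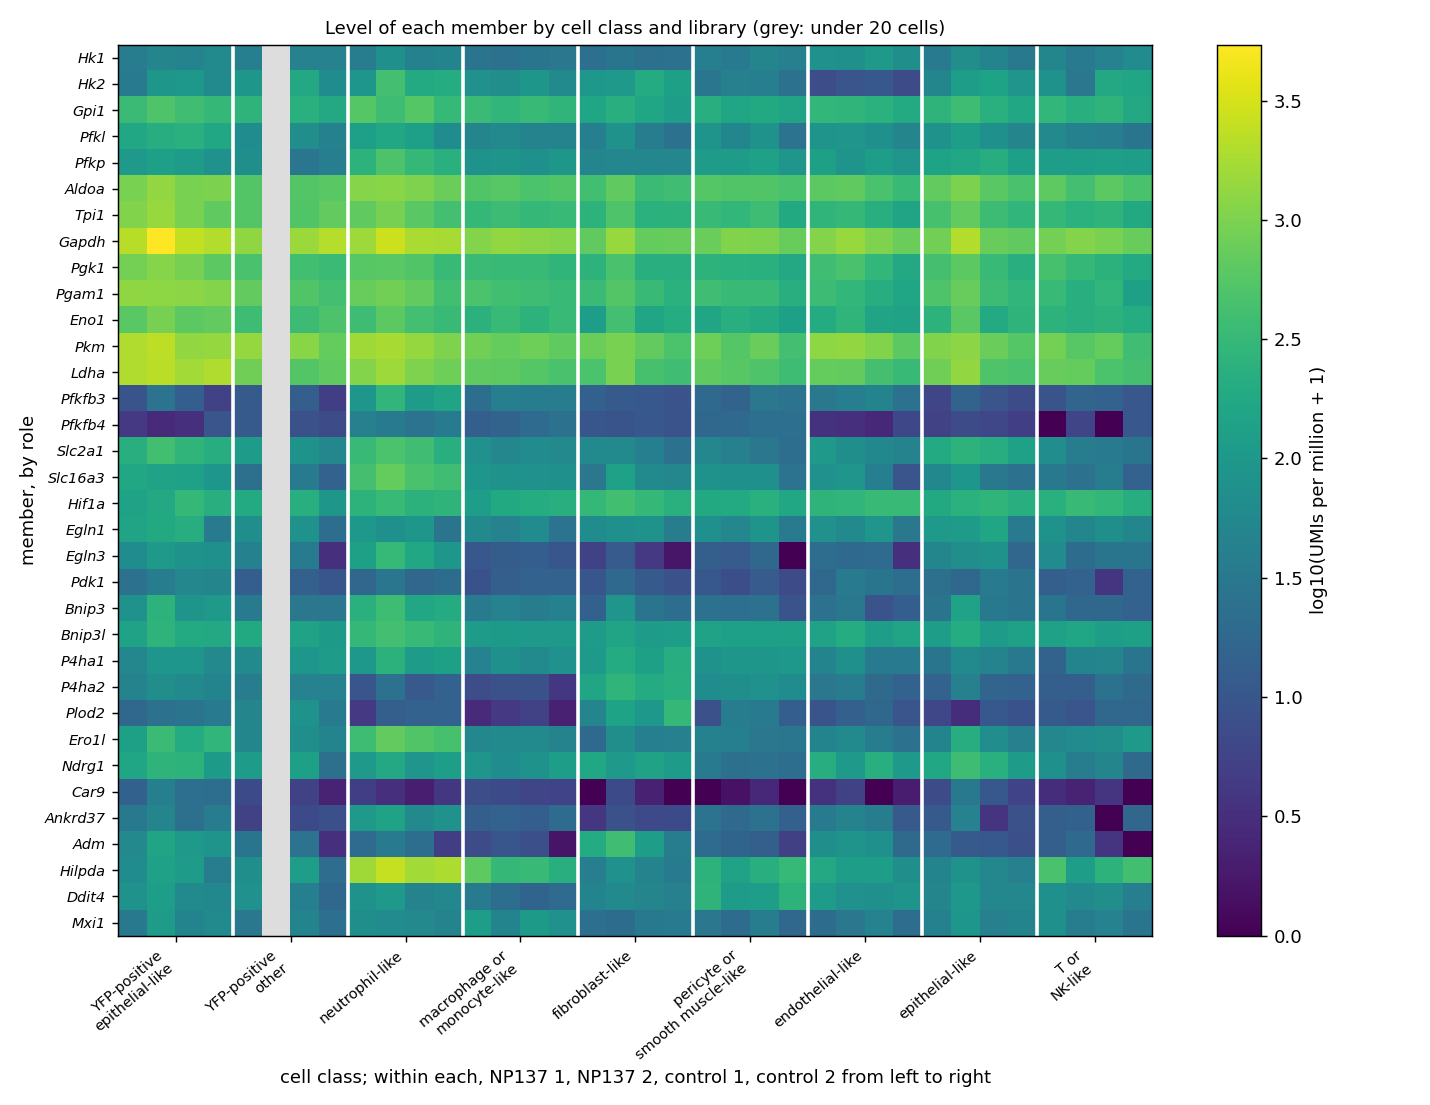
Level of each member (log10 of CPM plus 1) by cell class, with NP137 1, NP137 2, control 1 and control 2 from left to right in each class and grey where a class has under 20 cells. The neutrophil columns are brightest for Hilpda, Pfkfb3 and Ero1l, and the fibroblast columns for P4ha2 and Plod2. They are also brightest for Adm except in control 2, where epithelial-like YFP-positive cells stand higher.

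In the stroma the collagen enzymes and Adm stood out. P4ha2, a prolyl hydroxylase, stood at 154 and 273 CPM in fibroblast-like cells of NP137, against 195 and 219 CPM in control, and at most at 76.7 CPM in any pericyte library. A cluster led by Gzme and Mmp13 scored highest for fibroblast markers but was left unnamed, because its leading genes included markers of other classes. It is therefore outside the ranking and the fibroblast-like class. This cluster held 1913 and 1227 cells in NP137, against 375 and 11 in control. Its P4ha2 stood at 223 and 296 CPM in NP137, against 267 and 258 CPM in control. Adm, a peptide that widens vessels, stood at 196 and 387 CPM in fibroblasts of NP137, against 123 and 36.1 CPM in control. Hk1 was highest in endothelial-like cells, at 77.0 and 74.9 CPM in NP137, against 100 and 70.4 CPM in control. Car9 reached 4.01 CPM at most in a neutrophil library, where free RNA in the ratio of Krt14 would give up to 3.1 and 2.4 CPM in NP137, against 3.4 and 0.8 CPM in control, so its neutrophil level is read as background.

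Between the groups, in fibroblast-like cells 11 of 32 members were higher and 2 lower in both NP137 libraries, where 17.2% of genes were higher and 19% lower. The log2 fold change was above 0 for 26 members and 47.2% of genes, with a median of 0.44 for the members and -0.03 for all genes. At an adjusted p under 0.05 edgeR called 0 higher and 0 lower (0% and 0% of genes), with 3 and 1 at an unadjusted p under 0.05 (1.79% and 2.97%), and DESeq2 called 0 and 0 (0.0104% and 0.104%). The 4 with an unadjusted p under 0.05 were Adm, Slc2a1 and Pfkl, higher, and Hk2, lower. Hk2 in fibroblasts stood at 99.0 and 101 CPM (scaled by TMM) in NP137, against 204 and 130 CPM in control, with no overlap. Among macrophage or monocyte-like cells 10 of 34 members were higher and 3 lower in both NP137 libraries, where 16.6% of genes were higher and 16.4% lower. Positive log2 fold changes were found for 24 members and 50.3% of genes, with a median of 0.16 for the members and 0.00 for all genes. EdgeR called 0 higher and 0 lower at an adjusted p under 0.05 (0% and 0% of genes), with 0 and 0 at an unadjusted p under 0.05 (1.51% and 2.15%), and DESeq2 called 0 and 0 (0.0174% and 0.0087%). The 3 lower ones were Hif1a, Pdk1 and Pfkfb4. In macrophage or monocyte-like cells of NP137 1 and control 1, 16 of 30 members with a mean of at least 10 CPM were higher in NP137 1. Their median log2 ratio was 0.03, where 40.4% of genes were higher and their median was -0.11.

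In endothelial-like cells 19 of 32 members were higher and 1 lower in both NP137 libraries, where 22.4% of genes were higher and 22% lower. The log2 fold change was above 0 for 27 members and 48.7% of genes, with a median of 0.69 for the members and -0.02 for all genes. At an adjusted p under 0.05 edgeR called 0 higher and 0 lower (0% and 0% of genes), with 13 and 0 at an unadjusted p under 0.05 (4.1% and 5.08%), and DESeq2 called 0 and 0 (0.0106% and 0.0106%). In epithelial-like cells outside the YFP-positive clusters 17 of 34 members were higher and 2 lower in both NP137 libraries, where 19% of genes were higher and 23.1% lower. Positive log2 fold changes were found for 30 members and 47.2% of genes, with a median of 0.82 for the members and -0.04 for all genes. EdgeR called 0 higher and 0 lower at an adjusted p under 0.05 (0% and 0.00869% of genes), with 13 and 0 at an unadjusted p under 0.05 (3.71% and 3.9%), and DESeq2 called 1 and 0 (0.13% and 0.0782%). The 3 clusters of that class lay under the 50% limit but held 14.6%, 22.9% and 28.9% of cells with a YFP UMI. Keratinocyte genes moved with the members there too, with 6 of 8 higher and 0 lower in both NP137 libraries and a median of 0.79, and their part in the result was not tested. In that class NP137 2 had 53 cells, and 1508 of the 2631 cells of control 2 lay in a cluster of low UMI counts.

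Among pericyte or smooth muscle-like cells 7 of 33 members were higher and 3 lower in both NP137 libraries, where 16.4% of genes were higher and 17.3% lower. The log2 fold change was above 0 for 23 members and 48.4% of genes, with a median of 0.16 for the members and -0.01 for all genes. At an adjusted p under 0.05 edgeR called 0 higher and 0 lower (0% and 0% of genes), with 1 and 0 at an unadjusted p under 0.05 (1.28% and 2.51%), and DESeq2 called 0 and 0 (0.0567% and 0%). Among T or NK-like cells 5 of 25 members were higher and 2 lower in both NP137 libraries, where 18.5% of genes were higher and 18.1% lower. Positive log2 fold changes were found for 20 members and 52.3% of genes, with a median of 0.34 for the members and 0.03 for all genes. EdgeR called 0 higher and 0 lower at an adjusted p under 0.05 (0% and 0% of genes), with 2 and 1 at an unadjusted p under 0.05 (2.01% and 3.39%), and DESeq2 called 0 and 0 (0.0174% and 0.0347%).

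Whether the difference between NP137 and control was unlike in tumour cells and another class was tested by an interaction with library as a block. YFP-positive cells were mostly epithelial-like in NP137 and mostly of the other state in control. An effect of NP137 on them therefore cannot be told apart here from the mix of states. Against fibroblast-like cells, 4 members had a larger effect in YFP-positive cells at an adjusted p under 0.05 in edgeR, where 0.631% of genes did and 1.96% had a smaller one: Pfkp, Ero1l, Ankrd37 and Ddit4. Pfkp differed by 1.90 ± 0.38 (log2, SE; edgeR adjusted p = 0.026). In simulated counts with a spread set gene by gene this fit called far more unchanged genes than its threshold allows, so the 4 are not taken as established. Limma on the within-library differences, added for that reason, gave Pfkp 1.89 ± 0.30 (SE; adjusted p = 0.415) and called 0 genes, and in simulated counts it had little power. In epithelial-like YFP-positive cells alone, Pfkp, Ero1l, Ankrd37 and Ddit4 had log2 fold changes of 0.44, 0.22, 0.71 and 1.06. The interaction was not tested within that state. Against macrophage or monocyte-like cells and against neutrophil-like cells edgeR called 0 members. At an unadjusted p under 0.05, 20 members were larger in YFP-positive cells than in macrophage or monocyte-like cells, as were 786 of 14496 genes. Against neutrophil-like cells 3 members were larger, as were 569 of 14383 genes, and 1 was smaller, as were 1105 genes. That member was Pfkfb4, with a difference of -1.97 ± 0.56 (log2, SE; edgeR adjusted p = 0.109), the smallest p of any member in that comparison. Against neutrophil-like cells 0.229% of genes were called larger and 1.25% smaller, and against macrophage or monocyte-like cells 0%.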

How the data were processed

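Single-cell 3′ libraries (10x), 2 of NP137 and 2 of control tumour cells, were analysed from the filtered matrices of UMI counts that the authors deposited, which name 10x software 3.0.2 in their headers. The submitters' processing notes name mm10 and Seurat 3.1.5, and aligner settings were not given in the sources used. Cells were filtered, doublets removed, and the rest clustered without the members (scanpy 1.11.5, Leiden). Clusters were named from marker lists, and clusters of at least 50% YFP-positive cells were called tumour cells. Raw counts were summed per library and class and tested with edgeR 4.0.16 (quasi-likelihood, TMM, filter on low counts, no replicate block, Benjamini-Hochberg over all genes). DESeq2 1.42.0, limma 3.58.1, other filters, other clusterings and leaving out each library were alternatives. The tests were tried on simulated counts. All 34 members are named whatever their p, and of other lists the genes of smallest p in YFP-positive cells. The members and lists were chosen with earlier results of these data known. The comparisons in epithelial-like YFP-positive cells, in the Retnlg neutrophil cluster and without the low-UMI epithelial cluster, and limma's interaction test, were added after seeing the data. Levels (CPM) are UMIs of a class sum scaled to a common total, and intervals between libraries cover 4 samples only. One allele of the genotype is not reported here.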

Additional observations from a re-analysis of the deposited data

Results flagged for a closer look

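The difference of NP137 from control was larger in YFP-positive than in fibroblast-like cells for 4 members in edgeR's interaction test. At the same adjusted p under 0.05, 0.631% of 14907 genes had a larger difference and 1.96% a smaller one. The gap was 2.70 for Ankrd37, 1.89 for Ddit4, 2.13 for Ero1l and 1.90 for Pfkp on the log2 scale. An effect of NP137 cannot be told apart here from the mix of tumour cell states. Limma called none of them, and edgeR's fit called too many unchanged genes in simulated counts.

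For 3 members the NP137 and control libraries did not overlap within a class, with NP137 higher in 1 class and lower in another. These differences between classes were not tested. Pfkfb4 had a log2 fold change of NP137 over control of 0.56 in neutrophil-like and -0.58 in macrophage or monocyte-like cells. Hif1a had 0.43 in neutrophil-like, 0.42 in fibroblast-like and -0.39 in macrophage or monocyte-like cells. Mxi1 had 0.56 in neutrophil-like and -0.59 in fibroblast-like cells.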

How the results depend on the processing

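Of the single members' values in YFP-positive cells under the alternatives, 432 kept direction and side of the threshold, 34 newly passed it and 10 turned. The cause of each change was not tested. Members called in YFP-positive cells were 0, against 18 with DESeq2 and 11 without the filter on low counts (16% and 5.82% of all genes). Without that filter 1 was called in fibroblast-like, 4 in endothelial-like, 4 in epithelial-like and 1 in T or NK-like cells (0.922%, 0.911%, 0.68% and 0.734% of genes). In T or NK-like cells 10 were then higher in both NP137 libraries, as were 17.2% of genes. DESeq2 called 1 in epithelial-like cells. The labels do not say what a replicate number shares. By the file names number 1 shares a date and number 2 does not. The correlation of deviations ran from -0.07 to 0.17 over the classes, 0.02 in YFP-positive and 0.17 in epithelial-like cells, with 2 pairs. With a replicate block 9 members and 2.36% of genes were called in epithelial-like cells, and 0 members in YFP-positive cells. With no doublets removed, members lower in both NP137 libraries were 1 in YFP-positive and 1 in neutrophil-like cells (29.3% and 16.9% of genes). They were 0 in epithelial-like, 1 in pericyte or smooth muscle-like and 1 in T or NK-like cells (23.4%, 16.5% and 18.4% of genes). In the same setting, members higher were 16 in macrophage or monocyte-like and 11 in pericyte or smooth muscle-like cells (16.3% and 16.7% of genes). Lower members were 1 among cells with a YFP UMI and 3 in the Retnlg cluster alone (28.4% and 19.3% of genes). They were 1 without the low-UMI epithelial cluster and 1 in T or NK-like cells under the stricter cell filter (22.2% and 18.3% of genes). At Leiden resolution 2, fibroblast-like cells had 21 higher and 1 lower, where 18.9% and 19.5% of genes were. In epithelial-like YFP-positive cells alone 10 were higher, the median was 0.44, and Hk1 (-0.065), Hif1a (-0.51), Pdk1 (-0.52) and P4ha1 (0.17) turned. Limma called 0 in the interaction with fibroblasts. The members' summed level, fibroblast over macrophage, was 0.045 on the log2 scale with members kept in the clustering, against -0.12. The NP137 minus control share of YFP-positive cells with a UMI was 42.6 percentage points for Ldha, 16.5 for Slc2a1 and 3.32 for Ankrd37 at 1000 UMIs, and 10.1 for Ldha and 17.5 for Ankrd37 unthinned.

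Leaving out 1 library in turn, members called ranged over 0 to 4 in YFP-positive cells, 0 to 1 in endothelial-like, 0 to 8 in epithelial-like (8 without NP137 1, where 1.36% of genes were called) and 0 to 2 in T or NK-like cells (2 without NP137 1, where 6.23% were). Members higher in the NP137 libraries left than in the control libraries left ranged over 15 to 32 in neutrophil-like, 13 to 21 in macrophage or monocyte-like, 12 to 27 in fibroblast-like, 17 to 27 in epithelial-like, 8 to 24 in pericyte or smooth muscle-like and 6 to 20 in T or NK-like cells. Members lower ranged over 2 to 5 in YFP-positive, 0 to 8 in neutrophil-like, 6 to 7 in macrophage or monocyte-like, 3 to 13 in fibroblast-like, 1 to 8 in endothelial-like, 2 to 6 in epithelial-like, 5 to 11 in pericyte or smooth muscle-like and 3 to 6 in T or NK-like cells. Over all genes the shares were 27.3% to 38.3% higher and 30.7% to 44.1% lower. The pericyte median ranged over -0.12 to 0.50. Log2 fold changes in YFP-positive cells ranged over -0.075 to 0.37 for Hk1, -1.50 to 0.35 for Hk2, -0.27 to 1.04 for Hif1a, -0.72 to 0.12 for P4ha1 and -0.0078 to 2.61 for Hilpda. Interaction calls against neutrophils, macrophages and fibroblasts also varied with the library left out. In these fits 1 group holds a single library, so the counts are not read.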

Other observations

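Within NP137 1, YFP-positive cells with Xist reads alone (504 cells) and with Y-linked reads alone (1165 cells) were set side by side as a description without a test. Ldha stood at 2064 and 1891 CPM in these cells, Bnip3 at 63.2 and 76.1 CPM, and Ankrd37 at 27.7 and 28.8 CPM. Slc2a1 stood at 310 CPM in the cells with Xist reads and 195 CPM in those with Y-linked reads. As a ratio, the widest gap was that of Plod2, whose levels were low, at 7.34 CPM in the cells with Xist reads and 19.8 CPM in those with Y-linked reads.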
